A study of Sus scrofa with 90 samples.

Results

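Among the cDNA features of this pig muscle array that carried no single gene symbol, 109 had a lower mean value than non-injected muscle in lesions of 6 h, 7 d and 21 d. They were selected on those values: a feature was taken when its group mean lay at least 0.25 log units below the control mean at each of the 3 ages (a difference of at most -0.25). The 2 d lesions had no part in the choice. The 109 members came from 1702 features without a single symbol, of 1908 features with a value on every array and 4608 listed. No member carried several symbols in the annotation, so all 109 are known here only by their running number on the feature list, as in feature 6712.

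The samples were Longissimus dorsi muscle (the long back muscle) of 10 piglets, called C to L. Every piglet received propylene glycol, a solvent used to carry injected drugs, into this muscle at several times before sampling, and a site that was never injected in the same animal served as control. The control sites therefore came from animals that also bore lesions. The fit used 10 control sites, 10 lesions that were 2 d old, and 9 each that were 6 h, 7 d and 21 d old. The labels listed no 7 d lesion of pig J and no 21 d lesion of pig L, and the 6 h array of pig F was set aside for the reason given below. The labels give no genotype, breed, sex or age of the animals.

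Skeletal muscle is made mostly of long multinucleated fibres filled with contractile proteins and the enzymes that supply them with energy. An irritant injected into muscle kills fibres at the site, after which phagocytes clear the debris, satellite cells divide and fuse into new fibres, and connective tissue is laid down. A nylon cDNA array carries spots of cloned cDNA, many of them from sequenced tags that were never tied to a known gene, and radioactive cDNA made from the RNA of the tissue binds to them. In bulk tissue of this kind, fewer cells of a type and less RNA per cell cannot be told apart.

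Values were deposited on a log scale (base not given in the sources used here), so base 2 and the natural logarithm are both possible for a log unit. Values ran from -1.33 to 5.00, and 0 is not an absence of signal. The spread of the values over features differed between arrays: the SD within an array averaged 0.976 ± 0.237 (SD) over the 10 controls and 0.805 ± 0.0985 over the 10 lesions of 2 d. For the 6 h, 7 d and 21 d lesions (n = 9 each) it averaged 0.744 ± 0.0926, 0.607 ± 0.158 and 0.643 ± 0.196. Quantile normalisation gave all arrays the same set of values before any difference was taken. The correlation of the 6 h array of pig F with the average of the remaining arrays was only 0.24 in its listed order and at 0.739 when moved by 384 places, while the other 47 arrays were at 0.719 or higher in place. It was left out, as was a column of the 6 h lesion of pig J that copied the control of pig I. Of 15 skeletal muscle marker genes 12 were measured, by 63 features; their mean ran from 0.439 to 0.519 over control arrays, from 0.393 to 0.485 over 6 h arrays, from 0.382 to 0.514 over 2 d arrays, from 0.334 to 0.417 over 7 d arrays and from 0.331 to 0.455 over 21 d arrays. None of the neutrophil, macrophage, lymphocyte, fibroblast, adipocyte or erythrocyte markers was measured, and of the endothelial markers only PECAM1 was, so the share of other cell types in these sites was not tested.

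The members did not form a flat block over time. Their median difference from control was -0.34 log units at 6 h (range -0.62 to -0.25), -0.17 at 2 d (-0.39 to 0.23), -0.50 at 7 d (-0.86 to -0.26) and -0.38 at 21 d (-0.76 to -0.26). Over all 1908 features the same medians were -0.016, -0.021, -0.0088 and -0.0005. The age with the lowest mean was 7 d for 81 members, 21 d for 16 and 6 h for 12. The 2 d mean lay above the means of all 3 other lesion ages for 98 of the 109 members (89.9%, against 35.8% of all features tested). The lower position of the other 3 ages was set by the choice of members, and that share is a description.

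**Figure D1:**
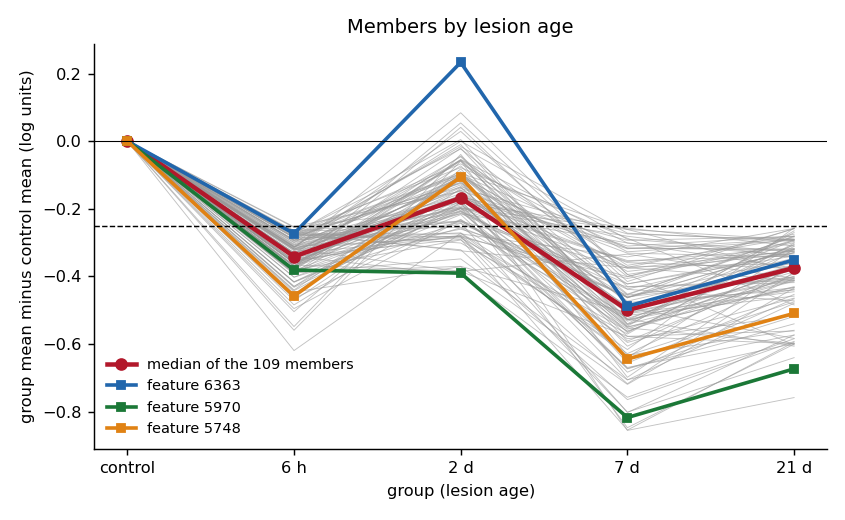
Difference of the group mean from the control mean (vertical axis, log units, quantile-normalised values) against lesion age (horizontal axis) for the 109 members, as thin grey lines, with their median in red and features 6363, 5970 and 5748 in colour; the dashed line marks the limit of -0.25 used at 6 h, 7 d and 21 d. The median runs from -0.34 at 6 h to -0.17 at 2 d, -0.50 at 7 d and -0.38 at 21 d, and feature 6363 is the member that stands highest at 2 d, at 0.23.

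Members close to the limit were hardly different from features that missed it. Feature 5800 was taken with a 6 h difference of -0.2535 and feature 5557 with -0.2550, while feature 4841 was missed at -0.2499 and feature 5756 at -0.2491. At 21 d, feature 5456 was taken at -0.2562 and feature 4746 was missed at -0.2493. The list is thus a slice of a continuous range of differences. With a limit of -0.20 the same steps found 185 features, and with -0.30 they found 64.

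The 12 members with the lowest mean over the 3 differences were features 6712, 5970, 5135, 5616, 4729, 6516, 4802, 5039, 6016, 5823, 5950 and 5408. Their values on the array scale are given as lowest, median and highest array of each group, as a description of the choice and no test of it.

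Feature 6712 was at 1.09, 1.45 and 2.19 in controls, 0.56, 1.07 and 1.68 at 6 h, 0.73, 1.36 and 1.98 at 2 d, -0.04, 0.52 and 1.57 at 7 d, and 0.36, 0.71 and 1.39 at 21 d. Its groups overlapped at every age: 5 of 9 arrays at 6 h, 3 of 10 at 2 d, 7 of 9 at 7 d and 8 of 9 at 21 d lay below the lowest control. Feature 5970 had tight controls (0.93, 1.11 and 1.34), with 0.44, 0.77 and 0.92 at 6 h, 0.10, 0.79 and 1.15 at 2 d, -0.35, 0.33 and 0.65 at 7 d, and -0.25, 0.46 and 0.98 at 21 d. Here all 9 arrays at 6 h and all 9 at 7 d lay below every control, as did 7 of 10 at 2 d and 8 of 9 at 21 d. Unlike the median member, feature 5970 stood no higher at 2 d (mean 0.71) than at 6 h (mean 0.72).

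Feature 5135 was at 0.65, 1.01 and 1.39 in controls, 0.40, 0.57 and 1.30 at 6 h, 0.13, 0.67 and 1.36 at 2 d, -0.29, 0.29 and 0.46 at 7 d, and -0.13, 0.44 and 1.03 at 21 d. Only its 7 d group was clear of the controls, with 9 of 9 arrays below the lowest control. Feature 5616 was at 0.71, 1.04 and 1.36 in controls, 0.16, 0.91 and 1.16 at 6 h, -0.08, 1.05 and 1.44 at 2 d, -0.34, 0.25 and 0.72 at 7 d, and -0.17, 0.57 and 1.12 at 21 d. At 6 h only 2 of its 9 arrays were below the lowest control, against 8 of 9 at 7 d, and its 2 d median was level with that of controls.

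Feature 4729 shows how a member could be taken on group means while its arrays overlapped widely. Its controls ran from -0.11 over a median of 0.89 to 1.89, its 6 h lesions from -0.07 over 0.28 to 0.70, its 2 d lesions from 0.26 over 0.87 to 1.36, its 7 d lesions from -0.23 over 0.28 to 0.67, and its 21 d lesions from -0.28 over 0.20 to 1.14. No 6 h array and only 3 of 9 arrays at 7 d were below its lowest control. Feature 6516 was at the other end, with controls at 1.49, 1.67 and 2.18, 6 h lesions at 0.94, 1.33 and 1.52, 2 d lesions at 1.23, 1.59 and 1.69, 7 d lesions at 0.65, 1.07 and 1.39, and 21 d lesions at 0.30, 1.21 and 1.501. Its lesions were below the lowest control on 8 of 9 arrays at 6 h, 9 of 9 at 7 d and 8 of 9 at 21 d, but on only 3 of 10 at 2 d.

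**Figure D2:**
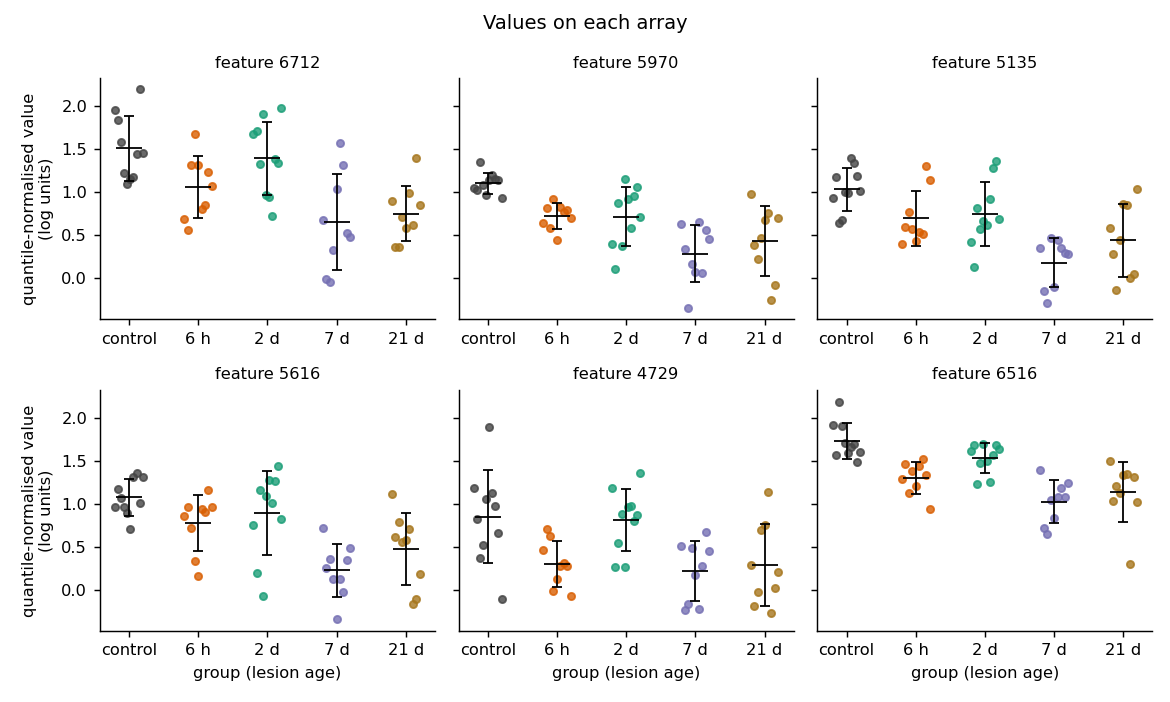
Quantile-normalised value (vertical axis, log units) on each array (points) in controls and at each lesion age (horizontal axis) for the 6 members with the lowest mean difference; the long bar is the group mean and the whiskers are ± 1 SD, with n = 10 for control and 2 d and n = 9 for 6 h, 7 d and 21 d. The 7 d arrays of features 5970, 5135 and 6516 lie below all controls, whereas those of feature 4729 overlap with them.

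In the remaining 6 lead members, all 9 arrays at 7 d were below the lowest control for features 5039 and 6016, 8 of 9 for feature 5408, 7 of 9 for features 4802 and 5823, and 6 of 9 for feature 5950. Feature 5039 was the only 1 of the 12 in which all 9 lesions of 21 d were below the lowest control as well (0.09, 0.79 and 1.002, against 1.03, 1.39 and 1.51). Feature 4802 had its low point at 6 h and 7 d alike, with group means of 0.66 ± 0.34 (SD, n = 9) and 0.64 ± 0.42 (SD, n = 9) against 1.27 ± 0.18 (SD, n = 10) in controls. At 2 d, no more than 5 of 10 arrays lay below the lowest control for these 6 members.

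The members covered a wide span of values. Feature 5060 had the highest control mean, 3.12 ± 0.29 (SD, n = 10), then 2.84 ± 0.15, 2.999 ± 0.20, 2.63 ± 0.27 and 2.54 ± 0.84 in lesions of 6 h, 2 d, 7 d and 21 d (n = 9, 10, 9 and 9). The large SD at 21 d came with the array of pig K, at 0.31, while the median there was 2.82. Feature 6141 followed with 2.92 ± 0.23 in controls and 2.57 ± 0.17, 2.79 ± 0.19, 2.60 ± 0.23 and 2.60 ± 0.16 at the 4 ages. At the lower end, feature 5904 was at 0.13 ± 0.25 in controls and at -0.21 ± 0.12, -0.07 ± 0.15, -0.24 ± 0.15 and -0.23 ± 0.20 in the lesions, close to the middle of the values of an array.

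The question whether these features also stood lower at 2 d was addressed with limma, with group and animal as terms and Benjamini-Hochberg adjustment across 1908 features. This comparison shares its control samples with the rule. No member was called at an adjusted p below 0.05. Of all features 14 (0.734%) were called, all of them higher at 2 d, and 0 were called lower. The smallest adjusted p of a member was 0.140. At an unadjusted p below 0.05 there were 30 members, all lower, against 170 of all 1908 features (8.91%). The 2 d mean was below the control mean for 103 of the 109 members (94.5%, against 55.8% of all features). It was at most -0.25 from the control mean for 24 members (22% against 2.36% of all features). The members had been chosen as low against these same controls, and all features had not. These shares, and the 30 members at an unadjusted p below 0.05, thus follow in part from the choice. Among the lead members, feature 5823 fell short of the threshold with a difference of -0.39 (SE 0.117, adjusted p = 0.150, lower than its own control in 8 of 10 pigs), and feature 5970 with -0.39 (SE 0.126, adjusted p = 0.204, 9 of 10 pigs). With array medians set to a common value in place of quantile normalisation, 12 members were called here, and 5 with the table values as deposited. The share of all features called under these scalings is not given here, so nothing about the members is read from these counts.

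The 6 members with a 2 d mean above control were few and small in size. The highest was feature 6363, at 0.38, 0.81 and 1.23 (lowest, median, highest) in controls and 0.36, 1.08 and 1.83 at 2 d, with -0.03, 0.59 and 0.86 at 6 h, -0.21, 0.30 and 0.64 at 7 d, and 0.03, 0.41 and 0.94 at 21 d. All its controls lay within the range of its 2 d arrays. The difference of the means at 2 d was 0.23.

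The lesion ages were then compared with each other. Each of these comparisons reuses lesion samples in which the members had been chosen as low, so the counts against 2 d follow in part from the choice and are given as a description beside the background. Against 6 h, 11 members were higher at 2 d (1.52% of all features were called higher), with a median difference over members of 0.19 log units. Feature 5984 was 0.41 higher (SE 0.0893, limma adjusted p = 0.00217, in 9 of 9 pigs), feature 4974 was 0.33 higher (adjusted p = 0.00267, 8 of 9 pigs) and feature 5748 was 0.36 higher (adjusted p = 0.00705, 9 of 9 pigs). The other 2 of the 5 with the smallest p were features 5817 (0.35, adjusted p = 0.00684) and 4812 (0.28, adjusted p = 0.0119). For feature 4812 the difference was 0.08 (adjusted p = 0.809) with the pig F array kept and 0.15 (adjusted p = 0.444) with a running median subtracted, and its adjusted p was 0.0748 without pig C. Without pig E, G or L the count was 7, 7 or 6, and it was 0 with array medians set to a common value or with the table values as deposited. Without the animal as a block feature 5817 missed the threshold (adjusted p = 0.0602).

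Between 2 d and 7 d, 51 members were lower at 7 d (7.02% of all features were called lower), with a median difference of -0.36. Feature 5748 was at 0.69, 0.80 and 1.14 at 2 d and at -0.12, 0.25 and 0.74 at 7 d, and it fell by 0.53 (SE 0.0884, limma adjusted p = 2.9e-05, in 9 of 9 pigs). Feature 5817 fell by 0.50 (adjusted p = 4.0e-05), feature 4974 by 0.41 (6.2e-05), feature 5984 by 0.48 (0.000135) and feature 4812 by 0.39 (0.000117), each in 9 of 9 pigs. For feature 4974 the 2 d arrays lay at 1.28, 1.68 and 1.84 and the 7 d arrays at 0.97, 1.31 and 1.53, so the groups overlapped in range although each pig moved the same way. Feature 4812 missed the threshold with the pig F array kept (adjusted p = 0.0672) and with the running median subtracted (adjusted p = 0.0888). Without pig E 31 members were called, and with the SD of each array as a covariate 27. The count was 28 with array medians set to a common value and 21 with the table values as deposited.

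Between 2 d and 21 d, 13 members were lower at 21 d (2.25% of all features were called lower), with a median difference of -0.23. Feature 4840 fell by 0.65 (SE 0.126, limma adjusted p = 0.000400, in 8 of 9 pigs), from 0.97, 1.36 and 1.81 at 2 d to 0.19, 0.76 and 1.15 at 21 d. Feature 6363 fell by 0.59 (adjusted p = 0.00560, in 7 of 9 pigs) and feature 5984 by 0.46 (adjusted p = 0.000486, in 9 of 9 pigs). Features 5748 and 5817 fell by 0.39 and 0.38, each in 9 of 9 pigs. Counts were 8 with array medians set to a common value, 6 with the table values as deposited, 7 with the 6 h array of pig F kept and 8 with array SD as a covariate.

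In at least 1 of these 3 comparisons with 2 d, 53 members were called, of which 39 were called in 1, 6 in 2 and 8 in all 3. The 8 were features 4812, 4840, 4974, 5628, 5748, 5817, 5984 and 6363. Their 2 d means lay between -0.11 (feature 5748) and 0.23 (feature 6363) from control. The 3 comparisons share the 2 d samples, and the members were chosen as low in the age set against 2 d in each. Of all 1908 features, 29 were called higher at 2 d than at 6 h. Lower than at 2 d were 134 at 7 d and 43 at 21 d. The overlap of calls over all features was not counted, so nothing is read from these numbers.

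The other 3 ages were all used by the rule, and its limit of -0.25 fell on differences that spread more widely over all features at 7 d (lowest -0.86, lower quartile -0.18) than at 6 h (lowest -0.62, lower quartile -0.13). Comparisons among these ages therefore rest on selected values and are given as a description. At 7 d, 93 members had a lower mean than at 6 h (85.3% against 48.7% of all features), and 2 of them were called lower, against 0.472% of all features. These were feature 5039, with a difference of -0.52 (SE 0.132, limma adjusted p = 0.0295, in 7 of 8 pigs), and feature 5408, with -0.47 (SE 0.128, adjusted p = 0.0484, in 7 of 8 pigs). Feature 5039 was at 0.50, 1.07 and 1.44 at 6 h and at 0.00, 0.51 and 0.94 at 7 d. The count was 4 without pig C, 1 without pig D, F or I, and 0 without pig E, G, K or L, with array SD as a covariate, with a running median along the list subtracted, or under the other 2 scalings. Feature 5039 missed the threshold in 9 of 17 alternatives and feature 5408 in 14 of 17. With the pig F array kept, their adjusted p was 0.0702 and 0.163, and for feature 5408 it was 0.0766 without pig J.

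From 7 d to 21 d, 87 members had a higher mean at 21 d (79.8% against 51.5% of all features). The median difference was 0.12, and limma called 0 members, against 0.681% of all features. At an unadjusted limma p below 0.05 there were 6 members, all higher, against 8.54% of all features in either direction. Between 6 h and 21 d the median difference was -0.03, and limma again called 0 members, against 1.62% of all features. At an unadjusted limma p below 0.05 there were 5 members, all lower, against 9.54% of all features in either direction. Members had to lie low at both of these ages, so nothing is read from the lack of calls.

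Averaged over the 109 members, the value of an array was 1.002 ± 0.072 (SD) over the 10 controls and 0.838 ± 0.145 over the 10 lesions of 2 d. It was 0.651 ± 0.086, 0.501 ± 0.178 and 0.601 ± 0.205 over the lesions of 6 h, 7 d and 21 d (n = 9 each). Lesions of the older ages varied more between pigs: at 7 d the arrays ran from 0.262 (pig E) to 0.738 (pig C) and at 21 d from 0.263 (pig I) to 0.879 (pig C), while controls ran from 0.888 (pig L) to 1.10 (pig I). At 2 d the mean was below that of the same pig's control in 9 of 10 pigs, from -0.401 in pig D to 0.041 in pig L, the pig that went the other way. At 2 d, 6 of 10 arrays lay below the lowest control. These controls were used to choose the members, so a lower mean in lesions, also at 2 d, follows in part from the choice. The arrays with a low mean of members were often those with a small spread of deposited values, as in the 7 d lesions of pigs D, E and G (array SD 0.384, 0.462 and 0.503; mean of members 0.313, 0.262 and 0.285). There were exceptions in both directions: the 2 d lesion of pig D had an array SD of 0.836 and a mean of 0.517, and the control of pig C had an array SD of 0.528 and a mean of 0.954.

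**Figure D3:**
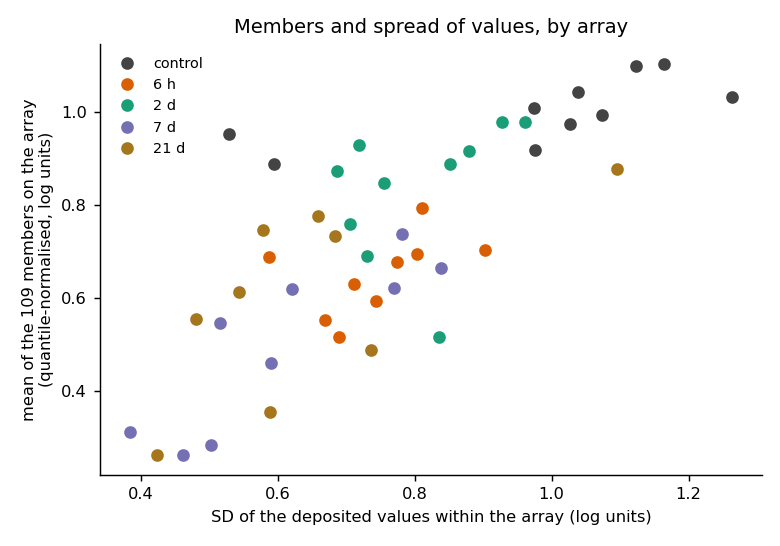
Mean of the 109 members on an array (vertical axis, quantile-normalised, log units) against the SD of the deposited values within that array (horizontal axis, log units), with 1 point for each of the 47 arrays, coloured by group. Controls lie at the top, from 0.888 to 1.10, including those of pigs C and L with array SDs of 0.528 and 0.594, and most 7 d and 21 d lesions lie at low SD and low mean. The members were chosen as low against these controls, so the place of the controls follows in part from the choice.

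With the array SD as a covariate, the median difference of the members from control was -0.23, -0.08, -0.34 and -0.22 over the 4 ages in order. Of the 109 members, 109, 85, 105 and 106 were below control. The members had been chosen as low against these same controls, so the counts follow in part from the choice. Array SD differs between the groups, so the covariate also takes up part of any difference between them. When the whole rule was applied after this adjustment, it found 72 features, of which 31 were among the 109. The scaling set the size of the differences: with the table values as deposited the medians were -0.70, -0.47, -0.92 and -0.84 at 6 h, 2 d, 7 d and 21 d. The 7 d median was lowest and the 2 d median nearest to control in each of the 8 settings plotted, while the 6 h and 21 d medians changed places. The same 109 members, chosen as low at 6 h, 7 d and 21 d, were used in every setting. The place of 2 d nearest to control thus follows in part from the choice.

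**Figure D4:**
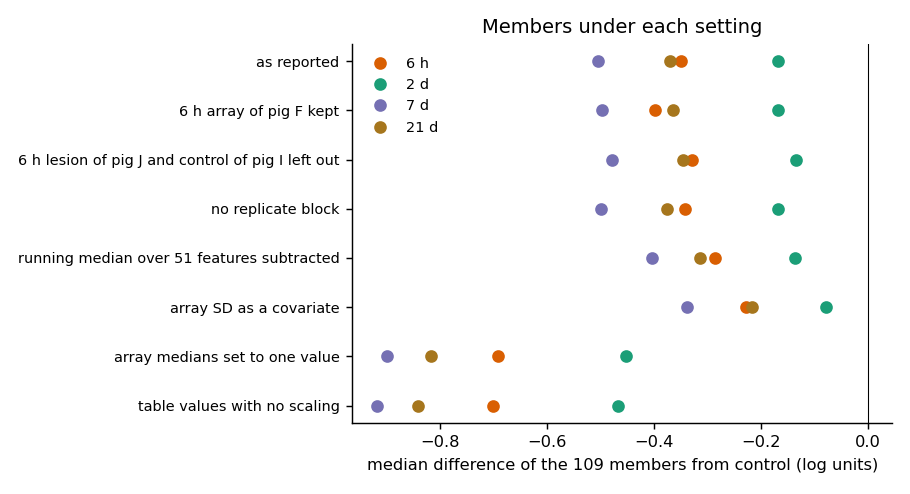
Median over the 109 members of the difference from control (horizontal axis, log units) at each lesion age (colours), estimated by limma under each way of handling the arrays (vertical axis). At every setting the 7 d point is farthest below 0 and the 2 d point nearest to it, at -0.50 and -0.17 as reported and at -0.34 and -0.08 with array SD as a covariate.

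The members were not spread evenly along the feature list. In runs of 384 consecutive features, the first 6 runs held 107 members among 1176 tested features without a symbol (9.1%), and the last 6 runs held 2 among 526 (0.38%), features 7767 and 9201. Features at least 0.25 log units above control at the same 3 ages, 99 in all, made up 4.42% in the first 6 runs and 8.94% in the last 6. All tested features shifted with place: their median of the mean of the 3 differences was -0.0679 in the first 6 runs and 0.0786 in the last 6. The place of a feature on the list also went with its value. All tested features were put into 5 classes of like size by their mean 2 d value. From the lowest to the highest class, members made up 0%, 0.444%, 5.93%, 12.7% and 18.3% of the unnamed features in the first 6 runs, and 0%, 0%, 0%, 1.67% and 5.26% in the last 6. Thus 57 of the 109 members were in the highest class, 37 in the next and none in the lowest. In each class that held members, the first 6 runs had the higher share. The shares in the last 6 runs rest on 1 feature of 60 and 1 of 19, and the 0.444% in the first 6 on 1 of 225. What the order of the list stands for is unknown here, and its part in the result was not tested. With a running median over 51 features subtracted, the rule found 67 features, 55 of them among the 109.

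**Figure D5:**
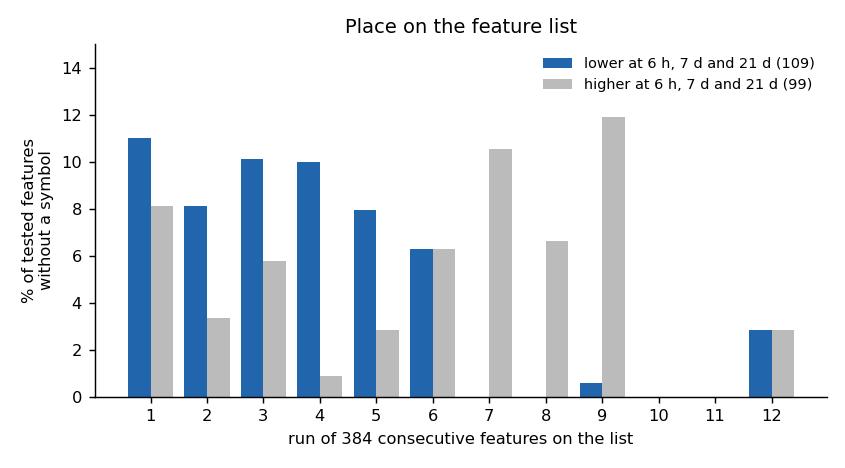
Percentage of the tested features without a gene symbol (vertical axis) that were lower (blue, 109 features) or higher (grey, 99 features) than control at 6 h, 7 d and 21 d, in each run of 384 consecutive features on the list (horizontal axis; run 11 held no tested feature). Blue bars stand between 6.29% and 11% in the first 6 runs and at most at 2.86% in the last 6, while the grey bars are highest in runs 7 and 9.

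On the list 8 pairs of members were direct neighbours, involving 15 members (13.8% of the 109). Of the 109, 94 had a tested feature next to them, and members made up 9.1% of the unnamed features of the first 6 runs, so nothing is read from this count. Both members outside the first 6 runs were low at 6 h, as the rule required of every member. Feature 7767 had its lowest mean at 6 h (0.81 ± 0.15, SD, n = 9, against 1.28 ± 0.21, n = 10, in controls), with 1.01 ± 0.16 (n = 9) at 7 d, and it was among the 11 members called higher at 2 d than at 6 h (0.32, SE 0.0993, limma adjusted p = 0.0431, in 8 of 9 pigs). Feature 9201 was at 0.78 ± 0.29 (n = 10) in controls, 0.40 ± 0.33 (n = 9) at 6 h and 0.40 ± 0.30 (n = 9) at 21 d.

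Members also moved together from array to array beyond the differences between groups. The rule used group means of the same arrays, so this is no independent support for the members as a unit. After group and animal had been removed, the median correlation between pairs of members over the 47 arrays was 0.261, with 79% of 5886 pairs above 0. Other unnamed features of the first 6 runs had a median of -0.00411 over 570846 pairs. Those features were not chosen for a shared direction of difference, nor matched to the members by value. With array SD removed as well, the median among members was 0.192, with 74.2% of pairs above 0. By distance on the list, the median was 0.315 for 56 pairs at most 10 places apart, 0.333 for 467 pairs 11 to 100 places apart and 0.255 for 5363 pairs over 100 places apart. Of the 109 members 101 had a median correlation above 0 with the others, and the range ran from -0.235 for feature 5142 to 0.512 for feature 5970. These correlations come from the same 47 arrays and share their labelling and scaling.

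The features most alike to the first 3 lead members were sought over all 47 arrays, with group differences included, so that likeness follows in part from the choice; 4 of the 6 found were members. Feature 5970 went with features 5974 (r = 0.921) and 5947 (r = 0.886), both members that lie near it on the list. Feature 5135 went with member 5039 (r = 0.815) and with feature 4971 (r = 0.810), which is no member. Feature 6712 went with member 5190 (r = 0.783) and with feature 4903 (r = 0.769), which is no member. None of these features had a symbol. Whether features 5970, 5974 and 5947 are clones of the same transcript was not tested.

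Because the members carry no names, the features with a symbol that met the same limits show which known transcripts had this profile. There were 18 of 206 (8.74%, against 6.40% of the features without a single symbol), for 14 of 121 genes, and 17 of the 18 lay in the first 6 runs. They were chosen by the same contrasts, so their values are a description. Skeletal muscle marker genes held 10 of the 18, and 63 of the 206 tested features with a symbol. The limits were met by 4 of 18 features of MYLPF, the regulatory light chain of fast myosin, by 2 of 12 of TNNC2, the calcium-binding troponin of fast fibres, by 1 of 4 of MYH7, the slow myosin heavy chain, and by 1 of 3 of TPM2, a tropomyosin of the thin filament.

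Feature 6108 of TPM2 was 0.94 in controls, with differences of -0.55, -0.22, -0.50 and -0.47 over the 4 ages in order of time. Feature 4799 of MYH7 was 0.56 in controls, with differences of -0.42, -0.27, -0.57 and -0.38. Enzymes of energy supply met the limits with 1 feature each, of 10 tested for CKM, 2 for ENO3 and 5 for GAPDH. CKM, the creatine kinase of muscle (feature 5804), had differences of -0.29, -0.23, -0.44 and -0.47, ENO3, the enolase of muscle (feature 5922), of -0.48, -0.30, -0.46 and -0.39, and GAPDH, the glycolytic dehydrogenase (feature 4613), of -0.55, -0.20, -0.32 and -0.32.

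The ribosomal protein genes RPS20 (feature 5350, 1 of 3 features) and RPL11 (feature 6282, 1 of 2) met the limits as well, as did the only tested feature of CAPNS1, the small calpain subunit, of QDPR, which recycles tetrahydrobiopterin, and of MIF, a cytokine. CAPNS1 (feature 4985) had the lowest difference from control of these at 7 d, -0.76, with -0.09 at 2 d, from a control mean of 2.417. HTT and RABAC1 were the other 2 genes, each with a single tested feature. For every gene with more than 1 tested feature, most features did not meet the limits, except ENO3 and RPL11, where 1 of 2 did. Features of the same gene thus differed, and a symbol on this list is only as sure as the annotation of its clone.

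The 6 h array of pig F, used above only in the setting that kept it, was also read after a move by 384 places. After the move 46 members had a value, of which 36 (78.3%) were below the control of pig F, against 49.6% of all features with a value, with a median difference of -0.31. In its listed order 87 of 109 members (79.8%) were below that control too, against 49.9% of all features, with a median of -0.79. The share below control was thus alike with and without the move, and nothing is read from it. Of the 46, 32 (69.6%) lay within the range of the other 9 arrays at 6 h, against 62.6% of all features. In its listed order 25 of 109 members (22.9%) lay within that range, against 42.5% of all features. The move was chosen because it gave the highest correlation, and pig F's control is among the 10 controls on which the members were chosen.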

How the data were processed

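RNA of 48 muscle samples was labelled with 33P and hybridised to nylon cDNA arrays, per the labels. The values deposited by the authors are on a log scale of unknown base, a unit other than counts or intensity; their normalisation was not given in the sources used here. Of 90 columns, 42 samples had 2 and 6 had 1; 41 of the 42 pairs were identical and were averaged. The copied column of pig J and the 6 h array of pig F were left out, and 47 arrays were quantile-normalised. Array medians ran from 0.0120 to 0.124 before this step.

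Values were fitted with limma 3.58.1 (lmFit and eBayes, R 4.3.3) over all 5 groups, with the animal as a block, since control and lesions lay in the same pig per the labels. Tests were two-sided, with Benjamini-Hochberg adjustment across 1908 features and a threshold of 0.05. To check the pairing, deviations from group means had a median correlation of -0.0236 between arrays of the same pig (88 pairs) and -0.0249 between arrays of different pigs (993 pairs), so the pairing rests on the design. P-values weigh a difference between groups against the spread left after the group and animal terms, and the number of arrays limits the precision. Python 3.11.15 with numpy 2.4.6, pandas 2.3.3 and matplotlib 3.10.9 made the summaries and plots.

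The members, gene lists and tests were chosen with earlier results of these data known. Features were named as the 12 members with the lowest mean of the 3 differences, the highest and lowest by control mean, those nearest to the limit, up to 5 called members with the smallest p in each comparison, and members called in all 3 comparisons with 2 d. Alternatives covered scaling, the left-out arrays, the block, array SD, a running median along the list, the limit and each pig left out. The fitting steps were tested on simulated data, drawn with independent noise for each feature and no animal effect. That was a check of the steps only, and nothing about the members or the lack of calls is read from it. No sequences of these features were used here.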

Additional observations from a re-analysis of the deposited data

Results flagged for a closer look

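Among 150 sets of values (each of 29 named features, and the mean of all members, in each group), 8 had an array far from the rest of its group by Dixon's ratio, and chance gives about 1 in 20. In 21 d lesions these were feature 6516 in pig I, at 0.298, feature 5823 in pig J, at 0.214, and feature 5060 in pig K, at 0.313. In 6 h lesions they were features 5628 and 9201 in pig G, at -0.130 and -0.397. The others were feature 4974 in the 2 d lesion of pig D, at 1.276, feature 7767 in the 7 d lesion of pig E, at 0.644, and feature 5748 in the control of pig L, at 1.159, which lay above the other controls.

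Differences between lesion ages, tested by limma with adjustment over all features, were as follows. Between 6 h and 7 d, features 5039 and 5408 differed by -0.524 and -0.472. Between 6 h and 2 d, feature 5984 was 0.411 higher at 2 d, feature 5748 was 0.361 higher, feature 5817 was 0.354 higher, feature 4974 was 0.326 higher and feature 4812 was 0.279 higher. From 2 d to 7 d the differences were -0.526 for feature 5748, -0.503 for feature 5817, -0.476 for feature 5984, -0.410 for feature 4974 and -0.393 for feature 4812. From 2 d to 21 d they were -0.655 for feature 4840, -0.587 for feature 6363, -0.456 for feature 5984, -0.394 for feature 5748 and -0.378 for feature 5817. These samples include the lesions on which the members were chosen.

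The 6 h array of pig F, which was left out of the comparisons except in the alternative that kept it, correlated with the other arrays at 0.739 when moved by 384 features.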

How the results depend on the processing

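The rule found 419 features with array medians set to a common value, 428 with the table values as deposited, 72 with array SD as a covariate, 67 with a running median along the list subtracted, 185 with a limit of -0.20 and 64 with -0.30. Leaving out each pig in turn gave 97 to 136 features, of which 83 to 105 were among the 109. For 2 d against control the member counts were 12 with common medians and 5 with table values. For 7 d against 6 h they were 0 with common medians, with table values, with array SD and with the running median, and 0 to 4 without single pigs. For 2 d against 6 h they were 0 with common medians and with table values, and 6 to 13 without single pigs. For 7 d against 2 d they were 28, 21 and 27 with common medians, table values and array SD, and 31 to 59 without single pigs. For 21 d against 2 d they were 8, 6, 7 and 8 with common medians, table values, the pig F array kept and array SD. Removing the animal block moved no count by over 1.5 times and ended the call of feature 5817 (2 d against 6 h, adjusted p = 0.0602). Over single named features 247 of 289 alternatives kept the call and 42 did not; no direction turned. The cause of these changes was not tested. The share of all features called under each alternative is not given here, so nothing about the members is read from these counts.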
